A study of Homo sapiens with 6 samples.

Results

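Mitogen-activated protein kinase (MAPK) cascade genes were followed in A375 human melanoma cells with a stable shRNA knockdown of MAP4K5 (3 arrays) and in A375 cells without the knockdown (3 arrays). The genes were taken by symbol: every MAP2K, MAP3K, MAPK, MAPKAPK and MAPKBP symbol on the array, plus the scaffold SPAG9 and the adaptors CRKL and TRAF6, which gave 48 of the 18132 genes measured. They comprise 18 MAP3Ks, 6 MAP2Ks, 11 MAPKs, 3 MAPK-activated kinases, 5 scaffolds, 2 adaptors and 3 further symbols that only share a name stem. Each gene was read at its brightest probe set that carries a single symbol, and the rule uses symbols and brightness rather than differences between the groups. Both groups were grown untreated in serum-containing medium. The labels state neither whether the control cells carried a vector nor whether the knockdown line is a clone, so a response to the vector or to line selection and a response to lower MAP4K5 cannot be told apart. Replicates are labelled biological, with no word on how the cultures were separated, and the p-values cover only the variation among these 6 arrays, which may be technical.

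A MAPK cascade passes a signal down through tiers of protein kinases: a MAP3K phosphorylates a MAP2K, which phosphorylates a MAPK on a threonine and a tyrosine of its activation loop. Separate branches end in ERK1 and ERK2, in the stress kinases JNK and p38, and in ERK5, while scaffold proteins hold kinases of a branch together and adaptors link them to receptors. MAP4K5 belongs to the germinal centre kinases, which act above the MAP3K tier and feed the JNK branch, whereas in melanoma the ERK branch is the one most often driven by mutation. Much of the control of these kinases lies in phosphorylation, which an expression array does not measure.

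The knockdown was visible at the targeted gene. MAP4K5 had intensities of 19.7, 18.8 and 20.3 in the knockdown arrays, against 77.7, 78.1 and 76.3 in the control arrays. This left 25.3% of the control level (log2 fold change -1.98 ± 0.08 SE, limma adjusted p = 2.9e-05). Its other probe sets stood at 32.8% and 22.4% of control, and an exact two-sided permutation test gave 0.1 at each of the 3, which is the lowest p that groups of this size can reach.

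Of the cascade transcripts, 2 passed the test. At an adjusted p under 0.05 over all genes, 1 member rose (the adaptor CRKL), 1 fell (the scaffold SPAG9) and 46 were not called. That is 4.17% of the members, where 7.83% of all genes were called, 3.7% upwards and 4.13% downwards. Of the 29 members with means at or above the median gene mean of 8.68, 2 were called (6.90%), against 13.5% of all genes that bright. A member that was not called is not shown to be unchanged, and its interval gives the range the arrays leave. The members' log2 fold changes ran from -0.58 to 0.54 with a median of 0.047, against 0.011 over all genes, and their median absolute value was 0.124, against 0.123. Knockdown and control values did not overlap in 11 members, 8 higher and 3 lower, or 22.9%, against 28.1% of all genes, and 11 had an unadjusted p under 0.05, against 23.5% of all genes. The 95% interval of the log2 difference lay within ±0.5 for 36 of the 48 members and within ±1 for 47, the exception being MAP2K5. These intervals belong to the brightest probe sets. At dimmer ones the interval could reach beyond ±1, as for MAP2K4 (0.50 to 1.07) and MAP3K2 (-1.07 to -0.22). In 19 members the mean lay below 8.68. RMA compresses folds of dim probe sets, so a narrow interval there does not exclude a 2-fold change in transcript.

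**Figure D1:**
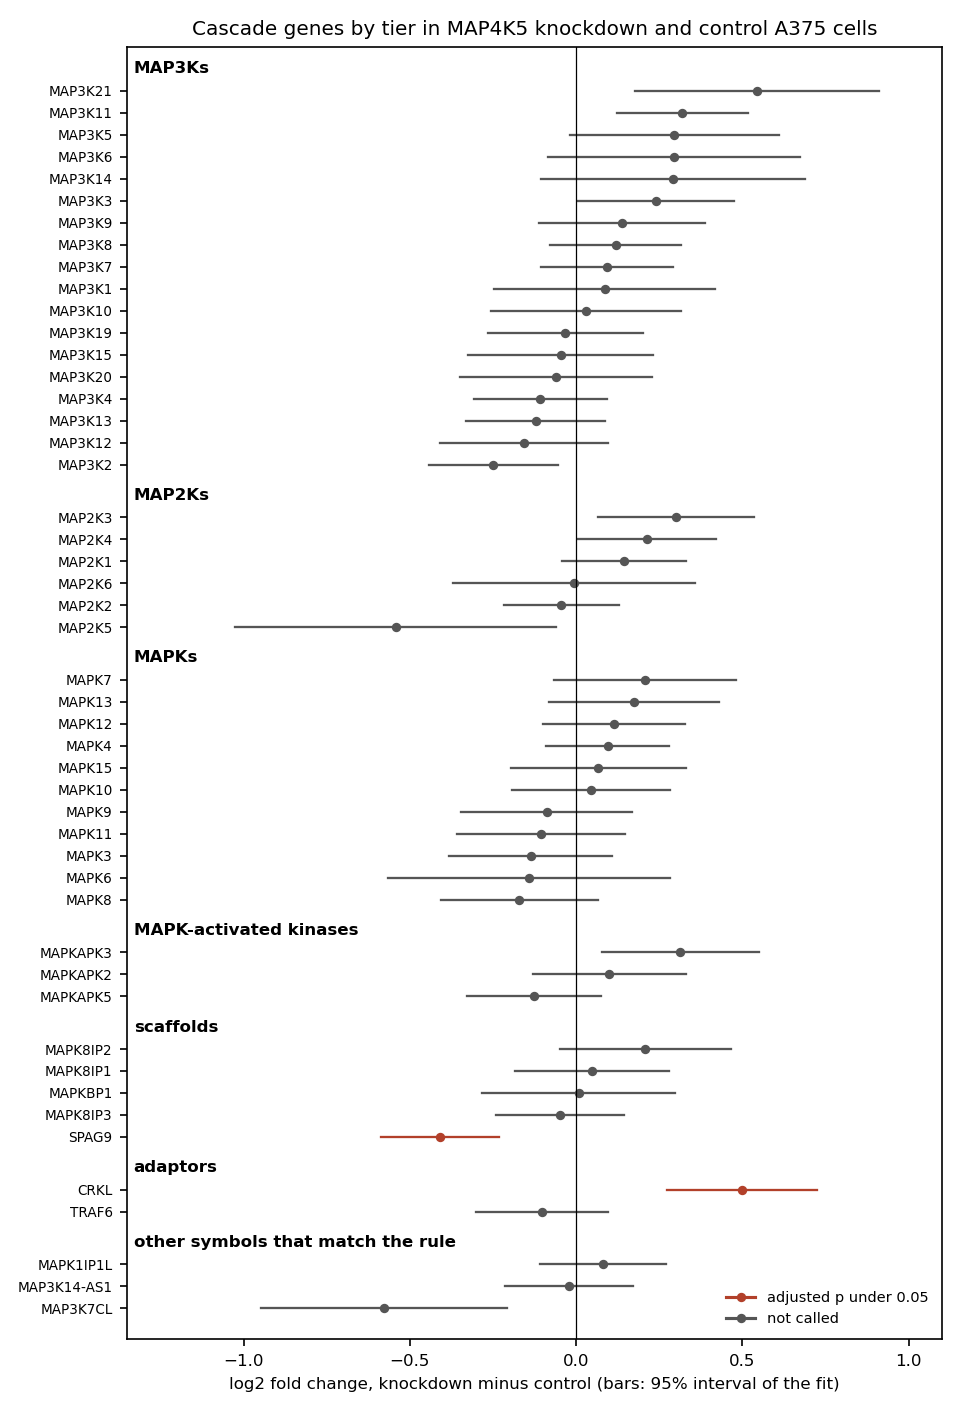
Log2 fold change (knockdown minus control, x axis) of the 48 cascade genes, grouped by tier, with the 95% interval of the limma fit as bars (3 arrays per group). Only CRKL at 0.50 and SPAG9 at -0.41 pass the adjusted threshold; the 11 MAPKs all lie between -0.17 and 0.21.

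Control replicate 2 stood apart from the other controls over the whole array: the SD of its log2 difference was 0.317 and 0.318 to controls 3 and 1, which differed from each other by 0.203, and 0.272 to 0.283 to the knockdown arrays. For 20 of the 48 members (41.7%) its value was nearer to the knockdown mean than to the mean of controls 1 and 3, against 54.7% of all genes. Values are therefore given by array below for many of the genes, while others are given only by their log2 fold change or group means. Of 13 melanocyte lineage markers measured, 8 had means at or above 8.68, among them SOX10, MITF and S100B, and 5, including MLANA, TYR and TYRP1, lay below it. Their summed intensity was 577 to 604 in knockdown and 627 to 841 in control arrays, with MITF and GPNMB higher and SOX10, S100B and MIA lower in knockdown cells. Markers of leukocytes, endothelium and fibroblasts summed to 65.4 to 68.8, 19.9 to 23.9 and 21.7 to 22.7 in knockdown arrays, against 60.6 to 73.1, 19.0 to 20.7 and 24.8 to 25.1 in control arrays. PTPRC, CD3E, CDH5, EPCAM and DCN lay below 4 in every array. Other members of these lists did not: VWF read 6.66 to 9.94, PDGFRB 5.35 to 8.56, CLDN4 6.87 to 8.73 and KRT8 13.9 to 29.2. KDR, LUM and COL1A1 passed 4 in some arrays. Epithelial markers summed to 1894 to 2197 against 1194 to 1342, nearly all of it KRT18, which rose with a log2 fold change of 0.69 ± 0.09 SE, while LYZ was the called leukocyte marker (0.97 ± 0.13 SE) and CD68, which melanoma lines also express, made up most of that list's sum. The part of these shifts in the results was not tested.

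CRKL encodes an SH2 and SH3 domain adaptor that links tyrosine-phosphorylated proteins to guanine nucleotide exchange factors. It had intensities of 41.2, 42.7 and 41.7 in knockdown cells, against 27.8, 33.7 and 27.8 in control cells. Every knockdown array lay above every control, and control 2 was the highest of the controls. The rise was 1.41-fold, at 0.50 ± 0.10 SE on the log2 scale (limma adjusted p = 0.0222). At a second probe set, whose ID ends in _x_at (a design that can bind several transcripts), CRKL read 25.3, 24.8 and 24.7 in knockdown and 17.5, 22.0 and 18.2 in control cells. That probe set did not overlap either but missed the threshold per probe set (0.38 ± 0.11 SE, adjusted p = 0.0807), and the third read at most 3.0 in all arrays. TRAF6, a ubiquitin ligase adaptor that activates TAK1 downstream of Toll-like and interleukin-1 receptors, had 10.8, 12.2 and 11.6 in knockdown against 12.1, 11.9 and 13.1 in control cells, with groups that overlapped (-0.10 ± 0.09 SE).

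SPAG9 encodes JIP4, a scaffold that binds JNK and p38 and also links vesicles to motor proteins. It had intensities of 100.4, 98.7 and 93.2 in knockdown cells, against 127.7, 131.0 and 129.4 in control cells. The groups were well separated, and control 2 lay with the other controls. The fall was 1.33-fold (log2 -0.41 ± 0.08 SE, limma adjusted p = 0.0191). Of its 9 probe sets, 5 had means at or above 8.68, and all 5 were lower in knockdown cells, with log2 fold changes of -0.47 to -0.26. Of these, 2 were called in the test per probe set. At 11744886_a_at, the other called one, SPAG9 read 26.4, 25.8 and 22.5 in knockdown against 36.8, 34.4 and 31.8 in control cells.

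The calls of CRKL and SPAG9 rest on all 6 arrays together. In fits without 1 array each kept its direction but was called only without control replicate 2, at 0.59 (limma adjusted p = 0.00141) and -0.40 (0.00951). In the other 5 fits the adjusted p of CRKL lay between 0.0781 and 0.0981 and that of SPAG9 between 0.059 and 0.0879. With all probe sets of a gene averaged in place of the brightest, which lets in the dim ones, they stood at 0.31 (0.0577) and -0.24 (0.0948) and were not called.

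**Figure D2:**
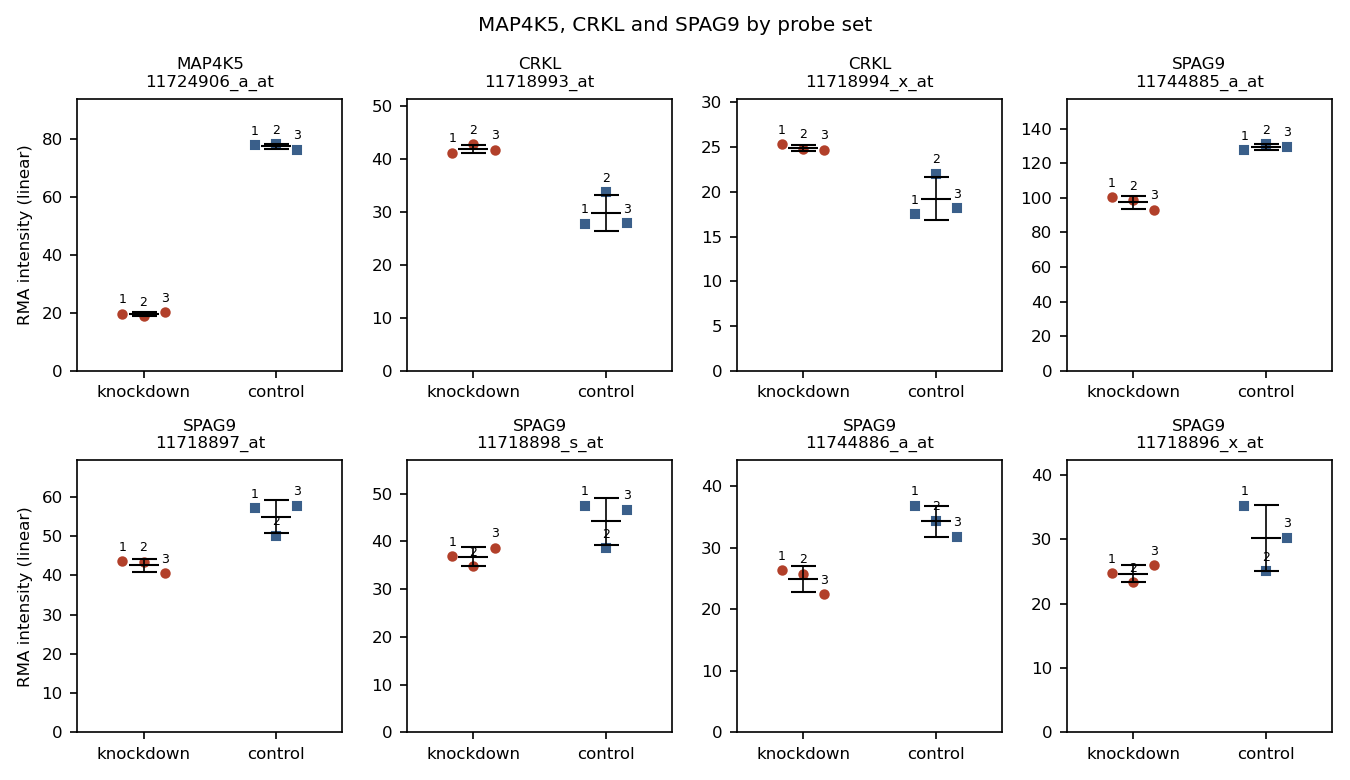
RMA intensity on a linear axis from 0 for MAP4K5, for the 2 brighter CRKL probe sets and for the 5 brighter SPAG9 probe sets; numbered points are arrays, dashes with bars the mean ± SD (n = 3 each), knockdown left and control right. SPAG9 at 11744885_a_at sits at 93.2 to 100.4 in knockdown against 127.7 to 131.0 in control arrays.

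The other scaffolds gave no call. JIP3 (MAPK8IP3), a JNK scaffold of axonal transport, had 15.0, 15.0 and 13.4 in knockdown against 15.0, 14.5 and 15.4 in control cells (log2 -0.050 ± 0.084 SE, 95% interval -0.24 to 0.14). MAPKBP1, a JNK-binding protein, had 22.7, 21.0 and 24.1 against 23.8, 18.6 and 25.5 (0.0073 ± 0.13 SE). JIP1 (MAPK8IP1) and JIP2 (MAPK8IP2), scaffolds of the same branch, stood at 0.049 and 0.21, not called, with means of 3.26 to 5.95 in both groups, where RMA compresses folds. The 95% interval of SPAG9 was -0.59 to -0.23, and a difference between scaffolds was not tested.

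The sequences just upstream of CRKL and SPAG9 are shown because these are the 2 members called at their brightest probe set. The RefSeq promoter table (GRCh38.p14) gave 250 bases before the annotated start of CRKL (chr22:20917157-20917406, plus strand) and of SPAG9 (chr17:51120869-51121118, minus strand), written 5′ to 3′ with every match of the searched motifs in capitals. The motifs, searched on both strands after the 2 sequences had been read, were TGACGT (the half-site of the cAMP response element, bound by CREB and the MAPK substrate ATF2), TGACGTCA (the full element, which contains the half-site) and TGAGTCA (an AP-1 site).
CRKL: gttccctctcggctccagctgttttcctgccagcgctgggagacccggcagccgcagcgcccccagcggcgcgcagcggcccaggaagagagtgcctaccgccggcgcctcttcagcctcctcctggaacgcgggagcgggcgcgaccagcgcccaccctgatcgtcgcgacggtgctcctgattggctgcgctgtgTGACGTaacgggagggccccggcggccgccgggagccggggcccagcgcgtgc
SPAG9: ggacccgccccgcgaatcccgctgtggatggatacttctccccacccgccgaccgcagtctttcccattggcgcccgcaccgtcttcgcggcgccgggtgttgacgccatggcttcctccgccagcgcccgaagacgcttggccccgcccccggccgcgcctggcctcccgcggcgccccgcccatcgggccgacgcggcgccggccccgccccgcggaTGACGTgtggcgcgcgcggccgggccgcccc
Each holds 1 TGACGT, starting 53 bases before the start of CRKL and 31 before that of SPAG9, and neither holds another of the motifs. TGACGT was present in 9 of the 42 cascade genes found in the table (21.4%) and in 7.42% of all 27305 upstream windows. CRKL and SPAG9 are among the 9, and the windows include genes that were not measured here. Because the motifs were searched after those 2 sequences had been read, the shares do not test an excess. Both the gene that rose and the one that fell carried it, as did MAP2K1, MAP3K7, MAPK6 and MAPK8, which were not called. TGACGTCA was found in 3 of the 42 and in 1.77% of all windows, and TGAGTCA in 1 of the 42 and in 4.16%. A match is only a run of letters in this window.

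No MAP3K was called, against 7.83% of all genes. Of the 18, 11 had positive and 7 negative log2 fold changes, where all genes had 9561 positive and 8571 negative. The MAP3K median was 0.09, against 0.011 over all genes, and 8 of the 18 had means below the median gene mean. MAP3K11 (MLK3), a mixed lineage kinase that activates JNK, had 32.6, 31.6 and 31.6 in knockdown cells, against 23.97, 27.8 and 25.1 in control cells. The groups did not overlap, and the difference missed the threshold (0.32 ± 0.09 SE, limma adjusted p = 0.0601). Its second probe set gave 11.5, 10.0 and 10.4 against 8.84, 8.98 and 7.29 (0.35 ± 0.11 SE, adjusted p per probe set 0.118). MAP3K21 (MLK4) of the same family had 47.6, 42.5 and 44.7 in knockdown against 25.5, 40.3 and 28.5 in control cells. Here control 2 came close to the knockdown arrays (0.54 ± 0.16 SE, adjusted p = 0.0783), and the second, dim probe set gave 0.20. The remaining mixed lineage kinases MAP3K9 and MAP3K10 had means between 5.38 and 6.54 and stood at 0.14 and 0.030.

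MAP3K2 and MAP3K3, the MEKK2 and MEKK3 kinases that activate the ERK5 branch, had values in opposite directions. MAP3K2 read 48.5, 48.5 and 47.6 in knockdown against 62.2, 54.5 and 55.4 in control cells (-0.25 ± 0.08 SE, limma adjusted p = 0.119), and a dimmer probe set stood at -0.65. MAP3K3 read 45.1, 46.0 and 50.4 against 35.1, 42.5 and 42.5 (0.24 ± 0.10 SE, adjusted p = 0.204). In neither did the groups overlap, and neither passed the test. MAP2K5, the kinase below them in that branch, had 24.4, 24.5 and 17.8 in knockdown against 34.6, 23.3 and 40.9 in control cells (-0.54 ± 0.21 SE, adjusted p = 0.166), with control 2 inside the knockdown range, and averaging all its probe sets gave -0.19. MAPK7 (ERK5) itself had 5.98, 5.75 and 5.49 against 5.51, 5.38 and 4.14 (0.21 ± 0.12 SE).

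Among the stress-responsive MAP3Ks, MAP3K5 (ASK1), held inactive by thioredoxin until oxidised, had 12.7, 12.7 and 12.3 in knockdown against 9.02, 12.9 and 9.199 in control cells (0.30 ± 0.14 SE, limma adjusted p = 0.242). Its relative MAP3K6 (ASK2) had 5.09, 6.77 and 6.001 against 3.94, 6.04 and 4.71 (0.30 ± 0.17 SE). MAP3K1 (MEKK1) had 56.3, 55.8 and 55.5 in knockdown against 45.3, 67.5 and 47.7 in control cells (0.086 ± 0.14 SE). In MAP3K1 the knockdown arrays lay between controls 1 and 3 below and control 2 above, and in MAP3K5 they lay above controls 1 and 3 and just under control 2. MAP3K4 (MEKK4) stood at -0.11 ± 0.09 SE and MAP3K7 (TAK1), the kinase of TGF-beta and interleukin-1 signalling, at 0.093 ± 0.087 SE, with all 6 of its brighter probe sets between 0.028 and 0.10. MAP3K14 (NIK), of the non-canonical NF-kB pathway, had 13.99, 10.8 and 14.6 against 8.35, 12.7 and 11.3 (0.29 ± 0.17 SE), and MAP3K8 (TPL2), an activator of MEK in macrophages, stood near the floor at 2.68 ± 0.18 against 2.46 ± 0.09 (SD, n = 3 each).

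**Figure D3:**
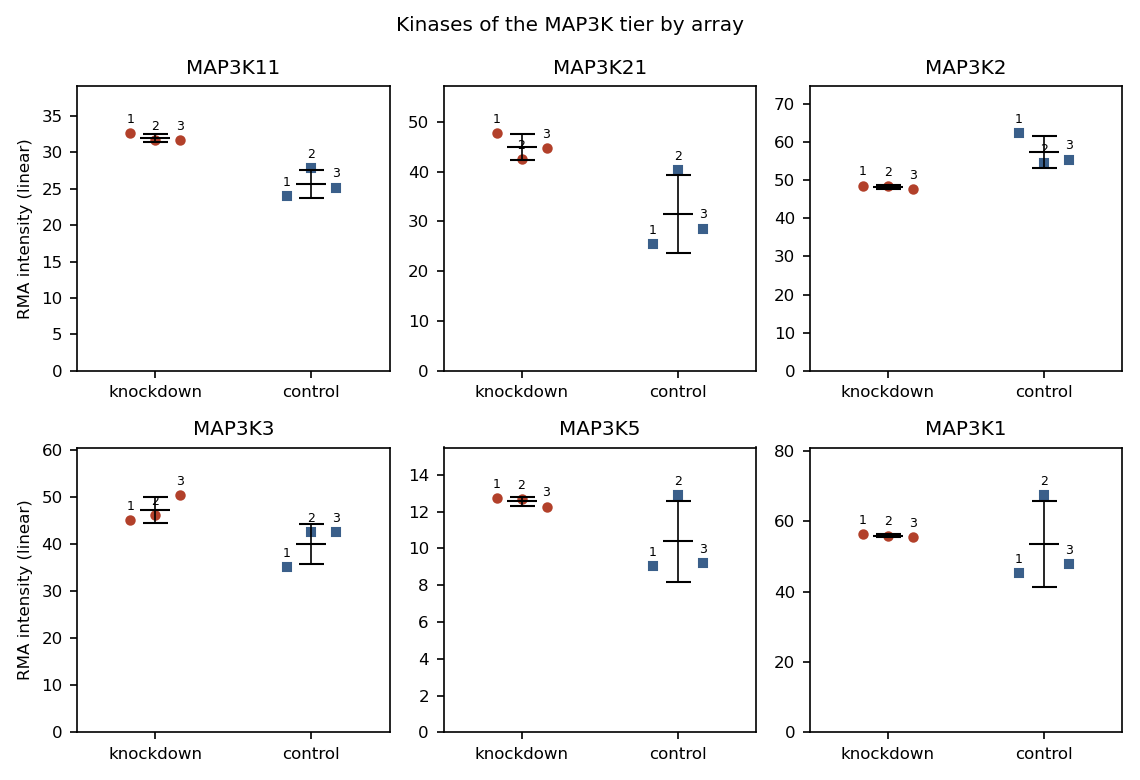
RMA intensity by array on linear axes from 0 for 6 MAP3Ks, chosen after their values were seen; numbered points are arrays, dashes with bars the mean ± SD (n = 3 each), knockdown left. MAP3K11, MAP3K21, MAP3K2 and MAP3K3 show groups that do not overlap, while in MAP3K5 and MAP3K1 control 2, at 12.9 and 67.5, is the highest of all 6 arrays.

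Leaving out control replicate 2 brought 8 members past the threshold, 6 higher and 2 lower in knockdown cells, or 16.7% of 48, against 20.6% of all genes in the same fit. Besides CRKL and SPAG9 these were MAP3K11 (0.38), MAP3K21 (0.74), MAP3K5 (0.46), MAP3K6 (0.46), MAP3K1 (0.26) and MAP2K5 (-0.77). The remaining 5 fits without 1 array called 0 or 1 of the members, the 1 being MAP3K7CL at -0.77 without control replicate 1. MAP3K7CL, which shares only its C-terminal region with TAK1 and has no kinase domain, had 3.54, 3.58 and 4.13 in knockdown against 4.29, 6.05 and 6.69 in control cells (-0.58 ± 0.16 SE, limma adjusted p = 0.0669).

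None of the 6 MAP2Ks was called, against 7.83% of all genes. MAP2K1 (MEK1), the ERK kinase, had 350.4, 348.4 and 354.6 in knockdown against 296.9, 335.2 and 321.8 in control cells. The groups did not overlap, yet the difference was small (0.14 ± 0.08 SE, limma adjusted p = 0.337, 95% interval -0.04 to 0.33). MAP2K2 (MEK2) had 24.1, 23.1 and 24.6 against 24.4, 24.6 and 25.02 (-0.045 ± 0.076 SE). Of the p38 kinases, MAP2K3 had 36.1, 35.7 and 39.8 in knockdown against 27.4, 29.5 and 33.9 in control cells (0.30 ± 0.10 SE, adjusted p = 0.119), while MAP2K6 lay at 7.95 ± 0.10 against 8.13 ± 1.86 (SD, n = 3 each).

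MAP2K4, which phosphorylates both JNK and p38, differed between its probe sets. At the brightest it had 56.1, 55.8 and 53.5 in knockdown against 51.8, 43.3 and 47.7 in control cells (0.21 ± 0.09 SE, limma adjusted p = 0.2). At 11756943_a_at it had 17.8, 21.3 and 17.2 against 9.60, 10.7 and 12.5, a 1.72-fold rise that was called in the test per probe set (0.78 ± 0.13 SE, adjusted p = 0.014). Both probe sets were higher in all knockdown arrays, by different amounts. The other 2 read at most 4.7 and gave 0.22 and 0.24.

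Over all probe sets of the cascade genes, 6 of 132 were called, 3 in each direction, against 4.48% of the 44988 single-symbol probe sets. Besides those of CRKL, SPAG9 and MAP2K4 they read MAP3K20 and MAPK1IP1L. MAP3K20 (ZAK), the ribosome stress sensor, had 8 probe sets, and only 11726807_a_at was called, at 18.1, 19.3 and 17.4 in knockdown against 14.6, 12.9 and 12.7 in control cells (0.45 ± 0.10 SE, adjusted p per probe set 0.0359). Its 7 others stood between -0.066 and 0.036. MAPK1IP1L, named for an interaction with a MAPK and not a kinase, had 113.1, 123.1 and 111.9 against 114.3, 109.5 and 105.1 at the brightest probe set (0.081 ± 0.083 SE), but 41.4, 40.6 and 37.3 against 54.7, 60.9 and 52.6 at 11736006_at, which fell (-0.49 ± 0.10 SE, adjusted p per probe set 0.0265). The brightest ends in _s_at, and without such probe sets MAPK1IP1L was called among the genes. Of 14 members with more than 1 probe set at or above 8.68, 12 had all of these on the same side of 0, the exceptions being MAP3K20 and MAPK1IP1L. No map from probe sets to transcripts was used here.

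**Figure D4:**
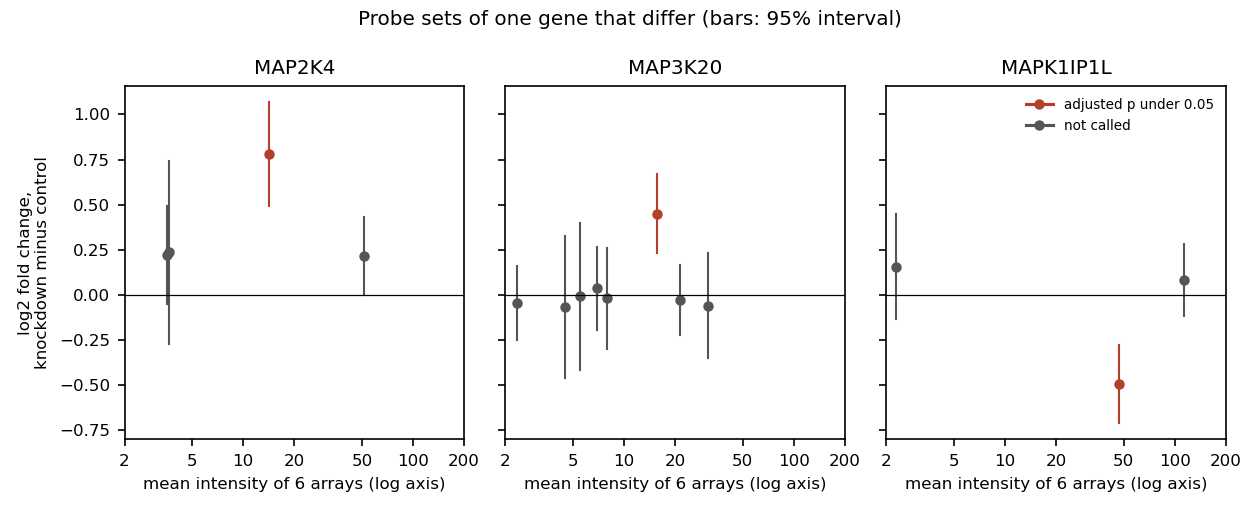
Log2 fold change (knockdown minus control, y axis) of every probe set of MAP2K4, MAP3K20 and MAPK1IP1L against its mean intensity (log axis), with 95% intervals (3 arrays per group). In each gene 1 probe set was called, at 0.78, 0.45 and -0.49, while the brightest probe set of the same gene was not.

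Of the 11 MAPKs, none was called, against 7.83% of all genes, and none had groups that did not overlap, against 28.1%. Their log2 fold changes ran from -0.17 to 0.21, and none had an unadjusted p under 0.05, against 23.5% of all genes. In 6 of the 11 the mean lay below the median gene mean, where RMA compresses folds, so these shares do not show a tier that is steadier than other genes. MAPK3 (ERK1) had 26.6, 23.9 and 30.6 in knockdown against 28.0, 31.0 and 29.7 in control cells (-0.14 ± 0.11 SE, 95% interval -0.38 to 0.11). Of the JNK genes, MAPK8 (JNK1) had 23.3, 24.2 and 24.4 against 30.4, 27.1 and 23.7 (-0.17 ± 0.10 SE), and MAPK9 (JNK2) had 55.3, 69.9 and 68.6 against 63.5, 73.5 and 68.4 (-0.089 ± 0.11 SE). The groups overlapped in each gene, and the 95% intervals were -0.41 to 0.07 and -0.35 to 0.17. The neuronal JNK3 gene MAPK10 stood at 2.93 ± 0.26 against 2.84 ± 0.27 (SD, n = 3 each), near the lowest intensities of the array.

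Of the p38 isoforms measured, MAPK12 (p38 gamma) had 21.8, 21.6 and 22.2 in knockdown against 22.4, 18.4 and 19.98 in control cells (0.11 ± 0.09 SE). MAPK11 (p38 beta) and MAPK13 (p38 delta) had means of 3.88 to 4.93 and stood at -0.11 and 0.17. MAPK6 (ERK3), an atypical MAPK with a short-lived protein, had 36.2, 39.2 and 23.6 against 36.6, 38.9 and 31.5 (-0.14 ± 0.18 SE), where knockdown replicate 3 was the lowest array. The atypical MAPK4 (ERK4) and MAPK15 had means under 4 in both groups and stood at 0.094 and 0.067.

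Below the MAPKs, MAPKAPK3 (MK3), a kinase activated by p38, had 68.3, 60.6 and 65.0 in knockdown against 53.6, 46.0 and 57.0 in control cells, with no overlap (0.31 ± 0.10 SE, limma adjusted p = 0.108). That probe set ends in _s_at, and the gene's other one had 30.8, 31.9 and 30.04 against 29.7, 27.3 and 33.6, with overlapping groups and a log2 fold change of 0.038. Its close relative MAPKAPK2 (MK2) had 89.5, 92.3 and 88.9 against 79.5, 77.9 and 96.2, with control 3 above all others (0.10 ± 0.10 SE). MAPKAPK5, a partner of ERK3 and ERK4, stood at -0.13 ± 0.09 SE.

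Neighbouring genes of the pathway were read from 7 further lists, whose called counts stand against 7.83% of all genes and 13.5% of those with means at or above 8.68, where most list genes lie. Among MAP4K kinases, MAP4K5 was the 1 called of 5. Of 16 RAS and RAF pathway genes measured, HRAS rose and SOS2 and SHOC2 fell (18.8%). HRAS had 60.6, 59.9 and 56.3 in knockdown against 32.0, 44.1 and 33.1 in control cells (0.71 ± 0.13 SE, limma adjusted p = 0.016). SHOC2, a scaffold that promotes RAF dephosphorylation, had 131.8, 135.6 and 141.9 against 172.4, 169.8 and 179.7 (-0.35 ± 0.08 SE). SOS2, a RAS exchange factor, had 23.0, 20.6 and 21.1 against 31.6, 26.2 and 37.4 (-0.54 ± 0.13 SE), with control 2 the lowest control. None of 7 other genes of the MAP3K tier was called; TAB2, the TAK1-binding subunit, had the smallest p (-0.22 ± 0.08 SE, adjusted p = 0.116).

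Of 19 other scaffolds and adaptors, 3 fell and none rose (15.8%, near the share of bright genes): TRAF1 (-0.46 ± 0.10 SE, dim at 3.3 to 5.2), TRAF3IP2 (-0.39 ± 0.08 SE), an adaptor of interleukin-17 receptors, and LAMTOR3 (-0.37 ± 0.08 SE), the MEK1 partner MP1, which had 48.4, 46.4 and 49.6 in knockdown against 62.4, 59.9 and 64.2 in control cells. Of 22 MAPK phosphatases, 3 rose and none fell (13.6%, again near that share). PTPRR, a tyrosine phosphatase that binds ERK, had 12.1, 12.9 and 16.7 against 7.31, 6.68 and 7.09 (0.97 ± 0.12 SE, limma adjusted p = 0.00447). DUSP4, a nuclear phosphatase of ERK, had 768, 719 and 775 against 511, 557 and 474 (0.55 ± 0.09 SE), and DUSP3 stood at 0.45 ± 0.09 SE. The list medians were -0.18 for the scaffolds and adaptors and 0.11 for the phosphatases, against 0.011 over all genes.

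Of 8 kinases that MAPKs activate, RPS6KA4 (MSK2) rose and MKNK2 (MNK2) fell. RPS6KA4 had 28.7, 27.7 and 27.7 in knockdown against 16.6, 19.5 and 14.9 in control cells (0.73 ± 0.11 SE, limma adjusted p = 0.00762). MKNK2, which phosphorylates the cap-binding factor eIF4E, had 57.6, 60.1 and 56.9 against 109.6, 73.7 and 122.6 (-0.78 ± 0.17 SE, adjusted p = 0.0325), with control 2 the lowest control. Of its 3 probe sets at or above 8.68, 2 were lower and 1 was higher in knockdown cells. RPS6KA2 (RSK3), singled out after its values were seen, had 3.76, 3.78 and 4.05 against 26.4, 4.89 and 25.6 (-1.95 ± 0.56 SE, adjusted p = 0.0742), so that control 2 lay near the knockdown arrays, and without _x_at and _s_at probe sets it stood at -0.16. Of 21 transcription factor substrates, 3 fell and none rose (14.3%, near the share of bright genes). MEF2C, a target of p38 and ERK5, had 5.28, 5.23 and 4.95 against 9.45, 8.93 and 9.03 (-0.83 ± 0.08 SE, adjusted p = 0.00112), MYC had 53.8, 54.6 and 60.8 against 130.0, 69.6 and 119.3 (-0.87 ± 0.21 SE), and ATF2, a substrate of JNK and p38, stood at -0.40 ± 0.10 SE at an _s_at probe set and at 0.076, not called, without such probe sets. The lowest log2 fold change of the list belonged to DDIT3, a stress-induced factor, which had 8.94, 8.01 and 9.51 against 89.4, 8.63 and 102.2 (-2.29 ± 0.81 SE, adjusted p = 0.131). Its control 2 lay inside the knockdown range, and it was not called. LAMTOR3, DUSP3, ATF2 and DDIT3 were also named after their values were seen. Without control replicate 2 the calls numbered 1 of 5 MAP4K, 5 of 16 RAS and RAF, 0 of 7 MAP3K-tier, 6 of 19 scaffold, 5 of 22 phosphatase, 6 of 8 downstream kinase and 9 of 21 transcription factor genes, against 20.6% of all genes in that fit. The share of bright genes in that fit is not given here. Control 2 was nearer to the knockdown mean in 75% of the downstream kinases and 71.4% of the transcription factors. That compares with 54.7% of all genes and 20% to 42.9% in the other lists, so leaving it out bears most on those 2 lists. In the fits without 1 array, MAP4K5, PTPRR and MEF2C were called in all 6, RPS6KA4 in 5, DUSP4 in 4 and TRAF1 in 2, while HRAS, SOS2, SHOC2, TRAF3IP2, LAMTOR3, DUSP3, MKNK2, MYC and ATF2 were called only without control replicate 2. With all probe sets of a gene averaged, the calls of SOS2 (-0.44), SHOC2 (-0.26), TRAF1 (-0.22), TRAF3IP2 (-0.18), RPS6KA4 (0.24), MKNK2 (-0.34) and ATF2 (-0.14) were lost.

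**Figure D5:**
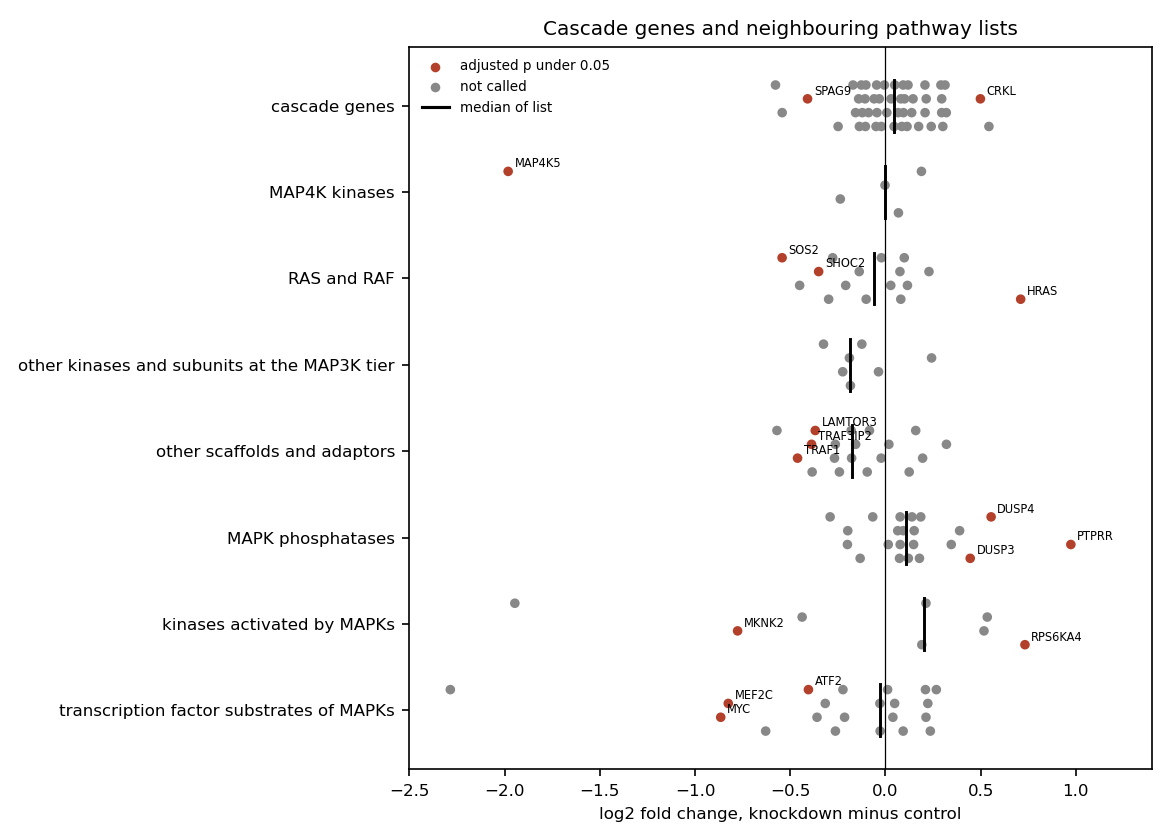
Log2 fold change (knockdown minus control, x axis) of every measured gene of the 48 cascade genes and of 7 neighbouring pathway lists; each point is a gene, coloured where its adjusted p is under 0.05, and the vertical bar is the list median. The cascade genes lie between -0.58 and 0.54, while other lists reach down to -2.29 (DDIT3, not called) and -1.98 (MAP4K5, called) and up to 0.97 (PTPRR).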

How the data were processed

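Total RNA of 6 cultures was hybridised as biotin-labelled cRNA to Affymetrix arrays. The deposited values are linear intensities per probe set, and the submitters' processing notes name RMA with no version. RMA corrects background and normalizes quantiles, which compresses folds of dim probe sets. Array medians lay between 4.85 and 4.94. Of 49293 probe sets, 44988 carried 1 symbol in the platform annotation, 1832 several and 2473 none. Symbols were checked by Entrez ID against RefSeq GRCh38.p14 (0 changed, 27 probe sets unmatched). Each gene took its single-symbol probe set with the highest mean log2 intensity, and 3 cascade probe sets with several symbols were left out. Genes of the core cascade without such a probe set (5) are not analysed here.

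Knockdown minus control was fitted on log2 intensity with limma 3.58.1 (R 4.3.3; lmFit, eBayes), with Benjamini-Hochberg adjustment over 18132 genes, threshold 0.05 and no filter on dim genes. The fit was tested on simulated data in which 200 of 18132 genes were changed. It called 77% of changes of log2 1 but only 33% of changes of log2 0.5, with 4 false calls. Many true changes of the size seen in the members would therefore go uncalled. Python 3.11.15, pandas 2.3.3, numpy 2.4.6, scipy 1.17.1 and matplotlib 3.10.9 served otherwise. Members, lists, tests and alternatives were chosen with earlier results of these data known. The named genes are MAP4K5, called members, members whose groups did not overlap with an absolute change of at least 0.3, a fixed core of the cascade, and up to 2 rises and 2 falls per list, or the smallest p where none passed; other members and list genes are named after their values were seen. The number of arrays limits the precision, and in bulk RNA fewer cells of a kind and less RNA per cell cannot be told apart. Same-numbered arrays did not deviate together (correlations -0.0792, 0.0217 and 0.0603), so the labels' numbers were not taken as pairs.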

Additional observations from a re-analysis of the deposited data

How the results depend on the processing

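The count of genes called was 1420 and of cascade genes 2. With array weights the counts were 3103 and 7, and with the mean of probe sets 1 cascade gene (MAP3K11) was called and 9 of the calls named in the report were lost; without 1 array they ran from 324 to 3732 and from 0 to 8, the highest without control replicate 2. With the replicate number as a block (replicate block) the counts were 1188 and 3, adding MAP3K7CL (adjusted p = 0.0361) and, in the lists, RPS6KA2, and losing SHOC2, TRAF3IP2, LAMTOR3 and ATF2; same-numbered arrays share only a number. Leaving out dim genes, repeated quantile normalization, a common median, an intensity trend and dropping _x_at and _s_at probe sets kept CRKL and SPAG9 called, and 43 members had a probe set left in the last. MAP4K5 was called under all 15 alternatives. The median log2 fold change of the cascade genes was 0.047. It ran from 0.0037 with the mean of probe sets to 0.081 with the lowest 50% of genes left out. Each move was smaller than the SD between arrays. That yardstick is wide: the median per array, over the control mean, ran from -0.048 to 0.042 in the controls. A move to near 0 stays within it. MAP3K11 was also called with array weights and with the lowest 50% of genes left out. ATF2 lost its call with repeated quantile normalization and a common median.

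Among the members and the other genes with values, ATF2 was the called gene that turned its sign, to 0.076 when _x_at and _s_at probe sets were dropped. MAPK1IP1L, not called at its brightest probe set, turned to -0.49 there and was called. The others were not called in either: MAP2K6 with a common median (0.012) and array weights (0.078), MAP3K20 (0.033), MAPK10 (-0.0012), MAPK9 (0.040), MAPKAPK2 (-0.021), MAP3K10 (-0.029), MAP3K13 (0.0044), MAPK1IP1L (-0.086) and MAPK8IP1 (-0.016) with the mean of probe sets, MAPKAPK2 (-0.14), MAPKBP1 (-0.067), MAP3K10 (-0.087), MAP3K13 (0.065) and MAPK8IP1 (-0.081) when those probe sets were dropped, and MAPKBP1 (-0.073), MAP3K10 (-0.028) and MAP3K14-AS1 (0.0072) with array weights. Without 1 array, MAP2K6 ranged from -0.21 to 0.13, MAP3K1 from -0.022 to 0.26, MAP3K20 from -0.21 to 0.016, MAPK10 from -0.020 to 0.12, MAPK6 from -0.28 to 0.085, MAPK8IP3 from -0.077 to 0.0049, MAPK9 from -0.15 to 0.019, MAPKBP1 from -0.13 to 0.099, MAP3K10 from -0.071 to 0.12, MAP3K14-AS1 from -0.074 to 0.025, MAP3K15 from -0.16 to 0.0098, MAP3K19 from -0.10 to 0.035, MAPK15 from -0.016 to 0.15 and MAPK8IP1 from -0.018 to 0.12. The causes were not tested.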
